A study of Mus musculus with 12 samples.

Results

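The genes of the axis of interleukin-17, interleukin-22 and interleukin-23 were read out in the skin of BALB/c mice by RNA sequencing. 9 members were taken by gene symbol from the count table, which lists 52636 genes: the ligands Il17a, Il17f, Il17c and Il22, the interleukin-23 subunits Il23a and Il12b, the receptor Il23r, and the interleukin-17 receptor subunits Il17ra and Il17rc. All 9 were listed in the table. Of these, 3 members (Il23a, Il17ra and Il17rc) held enough reads for the test across genes, and 6 fell below its filter on low counts.

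The 12 libraries came from 4 groups of 3. Control mice received an intradermal injection of the control vehicle. LL37 mice received LL37, the active peptide of human cathelicidin, as a mouse model of the facial skin disease rosacea. The other two groups, control + RAPA and LL37 + RAPA, were given rapamycin (RAPA), which inhibits the mTORC1 kinase complex, beside the vehicle or the peptide. By the study's methods the mice were female BALB/c at 8 weeks of age, without any engineered allele, each injection was 40 µl and was given 2 times per day for 2 days, and rapamycin was given at 4 mg/kg per day. The injected peptide is the human form, delivered into the dermis, so the groups model an acute injected stimulus. The study describes the 3 libraries of a group as independent biological samples.

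The comparison of LL37 with control asks which of these genes differ in the injected skin, and the comparison of LL37 with LL37 + RAPA asks which of them differ when mTORC1 is inhibited. As background, interleukin-23 is a dimer of the p19 chain (Il23a) and the p40 chain (Il12b), is made by dendritic cells and macrophages, and sustains lymphocytes that carry its receptor Il23r. Those lymphocytes, which in mouse skin are largely gamma-delta T cells and type 17 helper T cells, release interleukin-17A, interleukin-17F and interleukin-22. Keratinocytes and fibroblasts receive interleukin-17A and interleukin-17F through a receptor of Il17ra and Il17rc and answer with neutrophil-attracting chemokines and antimicrobial peptides, and keratinocytes themselves make interleukin-17C.

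Il12b was read only in libraries of LL37-injected skin, while Il17a, Il17f and Il22 were close to absent. The sequences around the start sites of these 4 genes are therefore shown side by side. They are the 300 bases from 250 before to 50 after the start site in RefSeq (build GRCm38.p6), on the strand of the gene. For Il17f this window lies inside the gene span given below, which comes from another annotation. Capitals mark matches to TATANAA and TGANTCA, the TATA-type and AP-1 motifs. The first was added to the search after the sequences had been seen. Il17a lies at chr1:20730655-20730954 on the plus strand, Il17f at chr1:20784221-20784520 on the minus strand, Il22 at chr10:118204714-118205013 on the plus strand and Il12b at chr11:44399813-44400112 on the plus strand.
Il17a: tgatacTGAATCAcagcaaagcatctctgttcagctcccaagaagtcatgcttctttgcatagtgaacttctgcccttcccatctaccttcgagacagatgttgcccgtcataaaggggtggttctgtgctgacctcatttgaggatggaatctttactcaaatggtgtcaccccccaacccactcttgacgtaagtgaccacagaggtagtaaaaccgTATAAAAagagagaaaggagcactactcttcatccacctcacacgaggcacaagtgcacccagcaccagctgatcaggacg
Il17f: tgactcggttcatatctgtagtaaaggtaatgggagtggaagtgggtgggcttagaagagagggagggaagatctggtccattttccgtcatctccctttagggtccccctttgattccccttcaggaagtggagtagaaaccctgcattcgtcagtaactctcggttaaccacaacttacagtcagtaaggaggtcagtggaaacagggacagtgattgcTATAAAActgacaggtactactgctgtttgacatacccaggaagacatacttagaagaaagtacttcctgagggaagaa
Il22: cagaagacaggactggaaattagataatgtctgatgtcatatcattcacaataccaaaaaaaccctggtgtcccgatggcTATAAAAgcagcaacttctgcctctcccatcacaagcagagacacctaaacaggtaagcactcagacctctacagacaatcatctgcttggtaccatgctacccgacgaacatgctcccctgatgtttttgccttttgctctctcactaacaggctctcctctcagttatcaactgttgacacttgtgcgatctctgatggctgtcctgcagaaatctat
Il12b: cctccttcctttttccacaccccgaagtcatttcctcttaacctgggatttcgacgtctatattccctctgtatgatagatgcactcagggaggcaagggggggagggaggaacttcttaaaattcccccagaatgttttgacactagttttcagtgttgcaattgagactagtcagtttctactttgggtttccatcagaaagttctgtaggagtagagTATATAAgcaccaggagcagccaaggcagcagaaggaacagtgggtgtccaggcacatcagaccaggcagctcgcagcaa

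7 of the 9 members had an entry in the promoter table, and Il23a and Il17ra did not. On either strand, TATANAA was found at -31 to -25 from the start site in Il17a, at -29 to -23 in Il17f, at -30 to -24 in Il12b and at -170 to -164 in Il22. It was present in 11.3% of the 32851 promoter windows of the table. TGANTCA was found in Il17a alone, at -244 to -238, and in 7.81% of all windows. The NF-κB consensus (8.46% of all windows) and the STAT motif TTCNNNGAA (8.3%) had no match in any of the 7 windows, which says only that these letters are not in them. No motif overlapped another, and a match is a description of the sequence, not a bound site.

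Library totals ran from 15734559 to 23271784 counts. At that depth 3 counts correspond to 0.123 to 0.184 CPM (counts per 1000000 counts of the library, with TMM normalization), and a group with 3 counts or fewer in every library was treated as at this floor. Floors and the counting intervals of pooled reads cover counting error only. The intervals of log2 fold changes came from the edgeR fit and also take in the spread between libraries. A gene was called changed at a Benjamini-Hochberg adjusted p under 0.05 in edgeR's quasi-likelihood test over all 17993 tested genes, with an absolute log2 fold change above 1. 2 libraries stood apart from their groups and touch the results below. LL37 replicate 3 had a first principal component score of 64.4, against 133 and 129 in the other two LL37 libraries, and control replicate 3 held a summed neutrophil marker level of 76.6 CPM, against 20.3 and 10.6 CPM in the other controls. The libraries carried skin transcripts, with keratinocyte and dermis markers summing to between 28500 and 47400 CPM in all 4 groups.

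The lymphocyte cytokines of the axis were near the limit of detection. Il22 (ENSMUSG00000074695, chr10:118204942-118210047 on GRCm38, as for all gene positions here), which acts on keratinocytes, had 0 counts in all 12 libraries. Il17a (ENSMUSG00000025929, chr1:20730905-20734496), the type 17 cytokine that drives neutrophil recruitment, had 4 counts in LL37 replicate 2 and 0 counts in the other 11 libraries. Il17f (ENSMUSG00000041872, chr1:20777146-20790617), its closest relative and neighbour on chromosome 1, had 0, 1 and 3 counts in the LL37 libraries, 0, 3 and 0 counts with control + RAPA, and 0 counts in every control and LL37 + RAPA library. Neither cytokine was seen in all libraries of any group. The mean of Il17a in LL37 was 0.0817 ± 0.142 CPM (SD, n = 3), below the floor, so no fold is given. Two-sided exact permutation tests of LL37 vs control gave p = 1 for Il17a and p = 0.4 for Il17f, where the smallest p that 3 against 3 libraries allow is 0.1. A difference in Il17a, Il17f or Il22 was therefore not detectable at this depth.

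Il17c (ENSMUSG00000046108, chr8:122422020-122423639), the interleukin-17 made by epithelial cells, was the one ligand with reads in every library. It had 2, 8 and 2 counts in control, 10, 3 and 1 with control + RAPA, 16, 18 and 8 in LL37, and 4, 9 and 10 with LL37 + RAPA. The LL37 libraries were the highest as a group, but LL37 replicate 3 and control replicate 2 overlapped. The mean level was 0.784 ± 0.371 CPM in LL37, 0.208 ± 0.175 CPM in control and 0.336 ± 0.133 CPM with LL37 + RAPA (SD, n = 3). Il17c fell below the filter of the main test, and in a fit of the 31949 genes with at least 1 count its adjusted p for LL37 vs control was 0.0728 in edgeR and 0.0629 in DESeq2. The exact permutation p was 0.2. Without LL37 replicate 3 it passed the filter, but only through the 2 remaining LL37 libraries, so its call in that setting is not used. Its reads are less certain than those of the other members, because the annotated gene Gm20388 overlaps it on the same strand.

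Both chains of interleukin-23 had their highest mean counts in LL37-injected skin. Il23a (ENSMUSG00000025383, chr10:128296139-128298752), the p19 chain that is particular to interleukin-23, had 1, 1 and 10 counts in control, 4, 9 and 2 with control + RAPA, 24, 25 and 13 in LL37, and 7, 16 and 6 with LL37 + RAPA. All LL37 libraries lay above all control libraries, and control replicate 3 was the highest control. The level was 1.15 ± 0.479 CPM in LL37 and 0.211 ± 0.274 CPM in control (SD, n = 3). The log2 fold change of Il23a in LL37 vs control was 2.40 (SE 0.73, 95% interval 0.79 to 4.01, adjusted p = 0.0208, edgeR), which met the limits for a call. Il23a passed the filter only through the LL37 group, where it was high, so this call is given as a description. That call rested on few reads. It was lost without control replicate 1 (log2 fold change 1.96, adjusted p = 0.0762), control replicate 2 (1.92, adjusted p = 0.0743), LL37 replicate 1 (2.29, adjusted p = 0.0576) or LL37 replicate 2 (2.18, adjusted p = 0.0596), and in a fit of the compared groups alone (2.38, adjusted p = 0.0563), while it was 2.74 without LL37 replicate 3 (adjusted p = 0.00975) and 4.27 without control replicate 3 (adjusted p = 0.00305).

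Il12b (ENSMUSG00000004296, chr11:44400063-44414033), the p40 chain shared by interleukin-23 and interleukin-12, had 12, 13 and 0 counts in LL37. It had 0 counts in all control and control + RAPA libraries, and 0, 1 and 1 counts with LL37 + RAPA. LL37 replicates 1 and 2 thus held all but 2 of its reads, and LL37 replicate 3 held none. The mean LL37 level of 0.483 ± 0.425 CPM (SD, n = 3) was 3.06 times the floor of 3 counts per library in control. That mean came from LL37 replicates 1 and 2 alone, and LL37 replicate 3 lay below the floor. The value is thus no lower bound for the group. The pooled reads of LL37 and LL37 + RAPA, 25 and 2, gave a ratio of 15.1 with a 95% counting interval of 3.78 to 132, an interval that leaves out the spread between libraries. Il12b did not pass the filter of the main test. Among all genes with at least 1 count it was called in LL37 vs control, with an adjusted p of 0.0186 in edgeR and 0.0337 in DESeq2, and not in LL37 vs LL37 + RAPA (adjusted p = 0.0855, edgeR). All its reads in that fit came from LL37-injected libraries, so the call is given as a description. In that fit 5.31% of genes were called higher in LL37 than in control, and 6.07% were called in either direction between LL37 and LL37 + RAPA. The exact permutation p for LL37 vs control was 0.4, as LL37 replicate 3 shares the value 0 with the controls.

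The receptor of interleukin-23 stayed low in every group. Il23r (ENSMUSG00000049093, chr6:67422932-67491855) had 1, 2 and 3 counts in control, 0, 0 and 3 with control + RAPA, 5, 5 and 3 in LL37, and 3, 1 and 2 with LL37 + RAPA. The LL37 libraries overlapped those of every other group at 3 counts. Its level was 0.24 ± 0.0871 CPM in LL37 and 0.105 ± 0.0521 CPM in control (SD, n = 3). It was not called in the fit of all genes with at least 1 count (adjusted p = 0.509, edgeR), and the exact permutation p was 0.2.

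**Figure D1:**
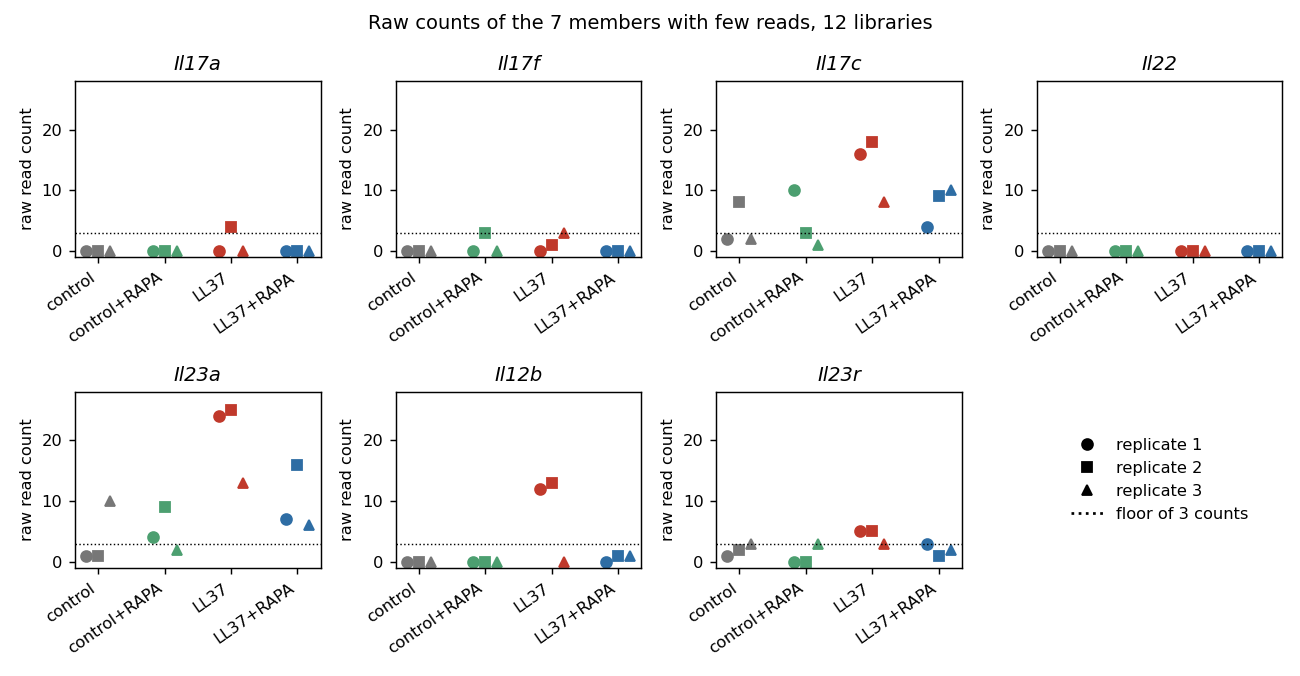
Raw read counts (y axis) of the 7 members with few reads in each of the 12 libraries, by group (x axis), with 1 marker shape per replicate and a dotted line at 3 counts. Il22 is at 0 throughout, Il17a and Il17f reach at most 4 counts, and Il12b stands above the line only in LL37 replicates 1 and 2.

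The plot of raw counts shows the same 2 libraries in several members: LL37 replicates 1 and 2 held the highest counts of Il17c, Il23a, Il12b and Il23r. Control replicate 3 held 10 of the 12 control reads of Il23a. With control replicate 3 and LL37 replicate 3 both left out, the log2 fold change of Il23a in LL37 vs control was 4.62 (edgeR). That setting was chosen after the counts were seen. It drops the highest control and the lowest LL37 library of Il23a, so the call there is not used.

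The receptor subunits for interleukin-17A and interleukin-17F were far more abundant than their ligands, and only one of them passed the test. Il17ra (ENSMUSG00000002897, chr6:120463247-120487559), the chain shared by the receptors of interleukin-17A, interleukin-17F and interleukin-17C, had 609, 607 and 686 counts in control and 629, 796 and 640 with control + RAPA. In LL37 it had 1957, 2174 and 1120 counts, and with LL37 + RAPA 1141, 2257 and 1432. Every library of both LL37-injected groups lay above every library of the vehicle groups. For LL37 + RAPA the same was true of 16.9% of all tested genes against control and 19.5% against control + RAPA. The level was 33.4 ± 2.55 CPM in control, 36.8 ± 2.6 with control + RAPA, 97.5 ± 41 in LL37 and 70.4 ± 19.8 with LL37 + RAPA (SD, n = 3). Il17ra rose in LL37 vs control by 1.55 on the log2 scale, 2.92-fold (SE 0.28, 95% interval 0.93 to 2.17, adjusted p = 0.0012, edgeR), and kept this call with each library left out, with values between 1.29 and 1.87.

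Il17rc (ENSMUSG00000030281, chr6:113471427-113483140), the chain that pairs with Il17ra for interleukin-17A and interleukin-17F, was high in every library. Its counts were 3415, 4401 and 3510 in control, 3887, 3735 and 3419 with control + RAPA, 4134, 3556 and 4226 in LL37, and 3795, 4515 and 4049 with LL37 + RAPA. The LL37 and control libraries overlapped. The level was 214 ± 13.4 CPM in LL37 and 198 ± 23.7 CPM in control (SD, n = 3), and the log2 fold change of 0.11 did not pass the test (95% interval -0.10 to 0.33, adjusted p = 0.394, edgeR).

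2 of the 3 tested members, Il23a and Il17ra, were thus called higher in LL37 vs control, where 8.73% of all tested genes were called higher and 19.5% were called in either direction. Il23a passed the filter only through the LL37 group, where it was high, so the count of 2 of 3 is a description and is not read against that share. DESeq2 called 3 of the 8 members with any count, adding Il12b, whose reads came only from LL37-injected libraries. Non-overlap of the LL37 and control libraries, seen for Il23a and Il17ra, was found, with LL37 higher, for 23.8% of all tested genes. In bulk skin, a change in the cells that express a gene and a change in its level per cell cannot be told apart.

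**Figure D2:**
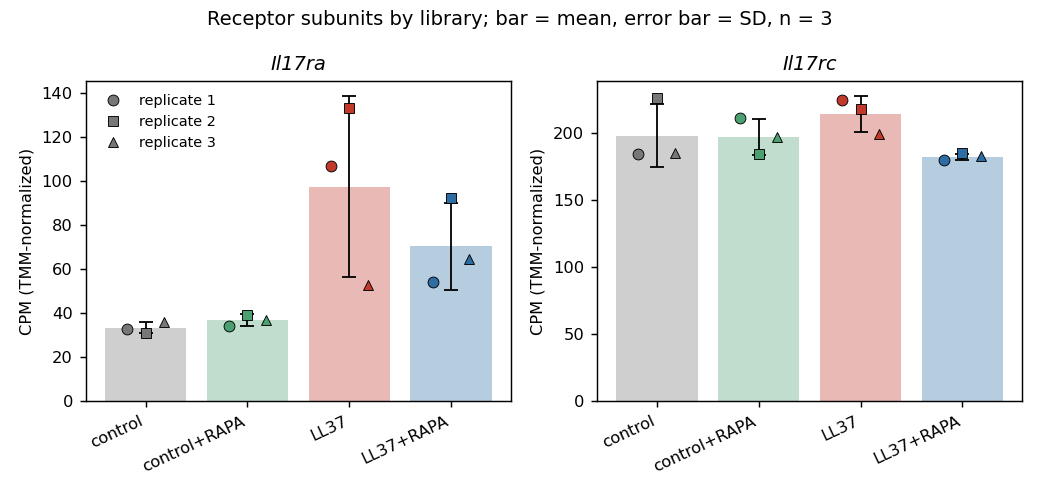
CPM (y axis, TMM-normalized, from 0) of Il17ra and Il17rc by group (x axis), with bars at the mean, error bars for the SD of 3 libraries and 1 marker per library. Il17ra is above the vehicle groups in all LL37-injected libraries, with LL37 replicate 3 at 52.8 CPM, while the Il17rc groups lie between means of 182 and 214 CPM.

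The plot of receptor levels shows levels that differ far more between groups for Il17ra than for Il17rc. Within a library and per base of exon, Il17rc exceeded Il17ra by ratios of 18.2, 23.5 and 16.6 in control and 20, 15.2 and 17.3 with control + RAPA. The ratio was 6.85, 5.3 and 12.2 in LL37 and 10.8, 6.49 and 9.17 with LL37 + RAPA. The LL37-injected groups did not overlap the vehicle groups in this ratio. LL37 vs control reached an exact permutation p of 0.1, the smallest possible, which is 0.167 after adjustment over 5 group pairs.

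Per exon length, on the FPKM scale computed here from CPM, the order of mean levels in control was Il17rc at 74.2, Il17ra at 3.85, Il17c at 0.289, Il23a at 0.0938 and Il23r at 0.0421, with Il17a, Il17f, Il22 and Il12b at 0. The ranges over libraries separated Il17rc from Il17ra and Il17ra from Il17c, while Il23a overlapped both of its neighbours, Il17c and Il23r. In LL37 the order was Il17rc at 80.1, Il17ra at 11.3, Il17c at 1.09, Il23a at 0.512, Il12b at 0.246, Il23r at 0.0964, Il17a at 0.0698 and Il17f at 0.0334. There the ranges of all neighbours after Il17ra overlapped.

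With rapamycin, no tested member was called in LL37 vs LL37 + RAPA by edgeR or DESeq2, where 10.1% of all tested genes were called by edgeR, and 1 of the 3 had an unadjusted p under 0.05. Il17ra was 52.8 to 133 CPM in LL37 and 54.1 to 92.4 CPM with LL37 + RAPA, with overlapping libraries and a log2 fold change of 0.47 (95% interval -0.13 to 1.07, adjusted p = 0.235). Il23a had 0.612 to 1.53 CPM and 0.27 to 0.655 CPM, also with an overlap, and a log2 fold change of 1.41 (95% interval -0.01 to 2.84, adjusted p = 0.135). Il17rc did separate, at 225, 218 and 199 CPM in LL37 and 180, 185 and 183 CPM with LL37 + RAPA, but by 0.23 on the log2 scale (95% interval 0.02 to 0.44, adjusted p = 0.108, edgeR). LL37 libraries lay above all LL37 + RAPA libraries for 17.6% of all tested genes. The intervals of Il17ra and Il23a leave room for a difference above the fold limit.

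The value of Il17ra in LL37 vs LL37 + RAPA depended on which library was left out. Its log2 fold change ran from 0.18 without LL37 replicate 2 (adjusted p = 0.68) to 0.77 without LL37 replicate 3 (adjusted p = 0.00737). The latter passes the p limit but not the fold limit. Without LL37 replicate 3, Il12b passed the filter, but only through the 2 LL37 libraries in which it was high. Its test in that setting is therefore not used. The interaction asks whether the LL37 effect differed with rapamycin. For Il17ra it was -0.91 without LL37 replicate 3 (adjusted p = 0.0286) and -0.32 without LL37 replicate 2 (adjusted p = 0.664). With LL37 replicate 3 and control replicate 3 both left out, Il23a was called in LL37 vs LL37 + RAPA at 1.72 (adjusted p = 0.0214). Its interaction was -3.92 there (adjusted p = 0.0277). That setting was chosen after the counts were seen and drops the lowest LL37 and the highest control library of Il23a, so these calls are not used. With all libraries, none of the 3 tested members was called for the interaction in edgeR or DESeq2, and none of them had an unadjusted p under 0.05. In the fit of all genes with at least 1 count, 0 of 8 members were called, and 1, Il17f, with at most 3 counts in a library, had an unadjusted p under 0.05. In the main test edgeR called 2.38% of all tested genes in either direction and 0.65% of all tested genes with a negative interaction. The interaction was -1.73 for Il23a (95% interval -4.11 to 0.64), -0.61 for Il17ra (-1.47 to 0.25) and -0.22 for Il17rc (-0.53 to 0.08).

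Il17ra also stood above control in the rapamycin-treated LL37 skin. In LL37 + RAPA vs control it rose by 1.08 (SE 0.28, 95% interval 0.46 to 1.69, adjusted p = 0.0247, edgeR) and was the only one of the 3 tested members called, where 2.15% of all tested genes were called higher and 6.49% in either direction. The call was lost without control replicate 1 (1.07, adjusted p = 0.0683), 2 (1.02, adjusted p = 0.0773) or 3 (1.13, adjusted p = 0.0593), and without LL37 + RAPA replicate 2 (0.83, adjusted p = 0.118) or 3 (1.14, adjusted p = 0.0527). Against control + RAPA, Il17ra differed by 0.94 in LL37 + RAPA (95% interval 0.32 to 1.55, adjusted p = 0.0365), below the fold limit, so none of the 3 members was called there by edgeR or DESeq2 although 1 had an unadjusted p under 0.05, where 8.39% of all tested genes were called by edgeR. Rapamycin without LL37 gave no call. In control + RAPA vs control the log2 fold changes were 0.32 for Il23a (95% interval -1.56 to 2.20), 0.14 for Il17ra (-0.47 to 0.75) and -0.01 for Il17rc (-0.22 to 0.21). No member had an unadjusted p under 0.05 by edgeR or DESeq2, and 0% of all tested genes were called.

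**Figure D3:**
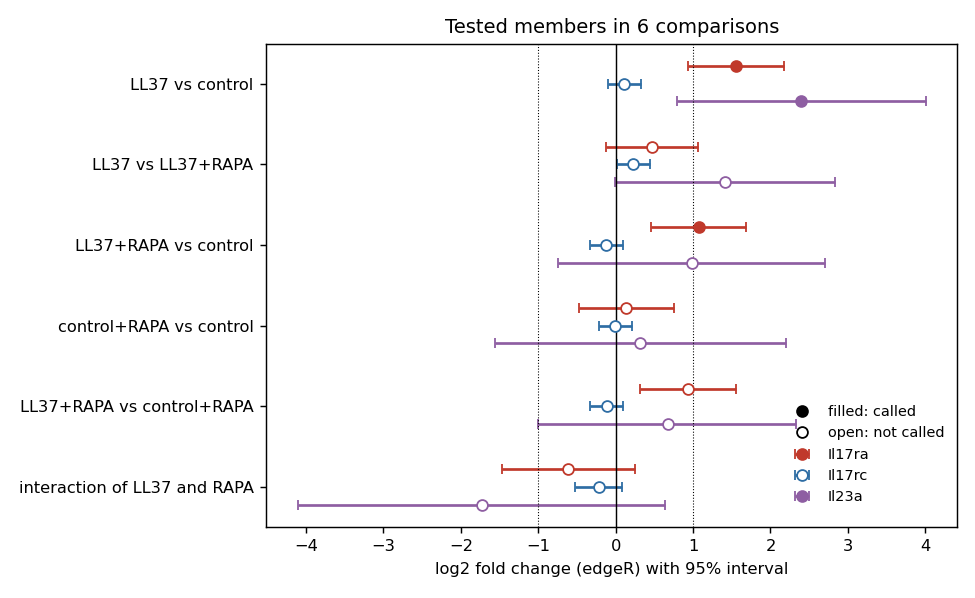
Log2 fold changes (x axis, edgeR) with 95% intervals for the 3 tested members in 5 comparisons and the interaction (y axis), where filled points were called and dotted lines mark the fold limit. Il17ra is filled in LL37 vs control and LL37 + RAPA vs control, Il23a in LL37 vs control only, and the narrow intervals of Il17rc lie near 0.

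The plot of fold changes also shows the precision of each member. The interval of Il23a in LL37 vs control ran from 0.79 to 4.01, while that of Il17rc ran from -0.10 to 0.33. The genes whose log2 CPM followed Il17ra most closely over the 12 libraries were Il1r1, the signalling receptor of interleukin-1 (Pearson r = 0.989), Cd33, a myeloid surface receptor (r = 0.988), and Picalm, a clathrin assembly protein (r = 0.982). For Il23a they were Hsh2d (r = 0.93), Ccno (r = 0.926) and Suv39h1 (r = 0.924). These correlations share the 4 groups and the libraries that stood apart, and are given as a description.

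The other genes of the pathway were counted in 6 lists of 100 distinct genes, of which 90 were tested. In LL37 vs control 47 of the 90 were called (52.2%), 44 higher and 3 lower, with a median log2 fold change of 1.05, against 19.5% called and a median of 0 over all tested genes. In LL37 vs LL37 + RAPA 32 were called (35.6%, against 10.1% of all tested genes), 29 higher in LL37 and 3 lower, with a median of 0.46. In LL37 + RAPA vs control 16 were called (17.8%, against 6.49% of all tested genes), 14 higher and 2 lower, with a median of 0.28. The second count was 13 without LL37 replicate 1, 14 without LL37 + RAPA replicate 1 and 21 without LL37 + RAPA replicate 3, and the third was 10 without control replicate 1 or 2 and 8 without LL37 + RAPA replicate 2 or 3. In control + RAPA vs control 0 were called by edgeR and by DESeq2, with an unadjusted p under 0.05 for 9. These comparisons share libraries, and the lists describe the pathway without setting it apart from other genes.

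Among the other ligands of the family, neither Il17b nor Il17d, the 2 that were tested, was called in LL37 vs control by edgeR or DESeq2, and neither had an unadjusted p under 0.05. Il17d lay at 4.6 ± 0.765 CPM in LL37 and 4.93 ± 0.754 CPM in control (SD, n = 3). Il17b, at 8, 9 and 15 counts in LL37 and 2, 8 and 2 in control, had a log2 fold change of 1.41 (SE 0.85, adjusted p = 0.207). Il25, with 0 to 24 counts per library, fell below the filter.

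Of 10 other receptor chains and soluble partners, Il10rb and Ebi3 were called higher in LL37 vs control and none lower. Over all tested genes 8.73% were called higher. Il10rb, the second chain of the interleukin-22 receptor, lay at 36.2 ± 4.57 CPM in LL37 and 16.5 ± 3.14 CPM in control (SD, n = 3; log2 fold change 1.13, adjusted p = 0.000265, edgeR). Ebi3, a p40-like chain of other dimeric cytokines, had 112, 62 and 28 counts in LL37, 24, 20 and 27 in control, and 22, 35 and 25 with LL37 + RAPA. It was called against both groups, by 1.57 vs control (adjusted p = 0.0137) and by 1.62 vs LL37 + RAPA (adjusted p = 0.0214), with LL37 replicate 3 close to the controls. Il22ra2, the soluble decoy receptor of interleukin-22, was lower in LL37 than with LL37 + RAPA by a log2 fold change of -1.29 (adjusted p = 0.0242).

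The chains that bind the members themselves mostly did not pass the test. For Il17re, which pairs with Il17ra for interleukin-17C, the log2 fold change in LL37 vs control was 0.30 (adjusted p = 0.294, edgeR). It was 0.45 for Il22ra1, the specific chain for interleukin-22 (adjusted p = 0.368), whose LL37 libraries ran from 168 to 1076 counts. Il12rb1, the chain that pairs with Il23r, had a value of 0.37 (adjusted p = 0.378), and Il12rb2, the interleukin-12 receptor chain, -0.04 (adjusted p = 0.939). Il12a, the p35 chain of interleukin-12, had 38, 31 and 13 counts in LL37 and 4, 10 and 26 in control, which overlap (1.10, adjusted p = 0.156). Il17rb, the receptor of interleukin-25, had -0.47 (adjusted p = 0.155), and Il17rd, a modulator of the receptor, had -0.89 with an adjusted p of 0.00136, which passes the p limit but not the fold limit.

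Downstream of the receptor, 6 of 23 tested signalling genes were called higher in LL37 vs control and none lower. Over all tested genes 8.73% were called higher. The 4 signalling genes with the smallest p were Zc3h12a, the ribonuclease that limits inflammatory messages (1.72, adjusted p = 0.00035), Stat3, the transcription factor behind the receptors of interleukin-22 and interleukin-23 (1.44, adjusted p = 0.000589), Nfkbiz, a nuclear cofactor of NF-κB for interleukin-17 targets (1.06, adjusted p = 0.00072), and Socs3, a feedback inhibitor (2.68, adjusted p = 0.000774). The adaptor of the receptor itself, Traf3ip2, had a log2 fold change of 0.24 (adjusted p = 0.0611). In LL37 vs LL37 + RAPA, where 10.1% of all tested genes were called, 3 of the 23 were called, all higher in LL37: Stat3 (1.15), Socs3 (1.92) and Tnfaip3, an inhibitor of NF-κB signalling (1.21). In LL37 + RAPA vs control none was called by edgeR or DESeq2, with an unadjusted p under 0.05 for 5.

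The known targets of interleukin-17 held the most calls. In LL37 vs control 23 of 25 tested targets were called higher and none lower, with a median log2 fold change of 3.52. Over all tested genes 8.73% were called higher. The lists were drawn up with earlier results of these data known, so their counts are descriptions. Cxcl5, a chemokine that attracts neutrophils, had 5500, 6060 and 731 counts in LL37 and 29, 2 and 12 in control (log2 fold change 8.27, adjusted p = 0.000128, edgeR). Ccl7, a monocyte chemokine (3.67), Mmp3, a matrix protease (3.11), and Fosl1, an AP-1 subunit (1.40), were the others among the 4 with the smallest p. Csf3, the growth factor of neutrophils, had a log2 fold change of 5.42 (adjusted p = 0.00336), and Lcn2, an antimicrobial iron-binding protein, had 3.52 (adjusted p = 0.00116). Defb4, an antimicrobial peptide, had at most 2 counts in any library. The relation of these changes to Il17a, Il17f and Il22, which had at most 4 counts each in any library, was not tested.

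In LL37 vs LL37 + RAPA 18 of the 25 interleukin-17 targets were called higher in LL37 and none lower, with a median of 1.91. Over all tested genes 10.1% were called in either direction. Il1f9 (interleukin-36 gamma, a keratinocyte cytokine) differed by 1.43, Ptgs2 (the prostaglandin synthase COX-2) by 4.04, Fosl1 by 1.18 and Defb14 (a beta-defensin) by 1.59. Ptgs2 had 1068, 706 and 212 counts in LL37 and 26, 74 and 54 with LL37 + RAPA. Ccl20, the chemokine that draws CCR6-bearing type 17 cells, was not among them. Its log2 fold change was 1.48 in LL37 vs control (adjusted p = 0.0295) and 2.02 in LL37 + RAPA vs control (adjusted p = 0.0168), while LL37 vs LL37 + RAPA gave -0.54 (adjusted p = 0.409). In LL37 + RAPA vs control 6 of the 25 targets were called, all higher, where 2.15% of all tested genes were called higher.

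Of 15 tested interleukin-22 targets, 9 were called higher in LL37 vs control and none lower, with a median of 2.34. Over all tested genes 8.73% were called higher. Saa3, an acute-phase protein, had a log2 fold change of 5.56, Bcl3, a cofactor of NF-κB, 2.92, and Reg3g, an antimicrobial lectin, 5.40. Il24, a cytokine of the same family as interleukin-22, had 175, 16 and 224 counts in LL37, 0, 0 and 3 in control, and 0, 0 and 2 with LL37 + RAPA. Its pooled reads gave a ratio of 141 to control (95% counting interval 48 to 688) and of 251 to LL37 + RAPA (69.1 to 2080). In LL37 vs LL37 + RAPA, where 10.1% of all tested genes were called, 7 of the 15 were called higher in LL37, among them Saa1 (3.86). 1 was called lower, Il22ra2, which is on both lists. Stat3 and Socs3, described above, are on this list too, at 1.15 and 1.92.

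The genes of type 17 lymphocytes did not move as one. Of 18 tested, 6 were called higher and 3 lower in LL37 vs control, where 19.5% of all tested genes were called in either direction. Tgfb3, a growth factor for type 17 cells, fell by 1.42 on the log2 scale (adjusted p = 4.63e-05, edgeR), and Irf4, a transcription factor of activated lymphocytes named after its value was seen, fell by 2.36 (adjusted p = 0.00202). Il21r, the interleukin-21 receptor, had 119, 87 and 100 counts in LL37 against 3, 3 and 10 in control (4.26, adjusted p = 1.76e-05), and Batf, a transcription factor of type 17 cells, had a log2 fold change of 2.28 (adjusted p = 0.000582). In LL37 vs LL37 + RAPA Il21r (2.66) and Cxcr6, a homing receptor of T cells (1.02), were called higher in LL37, and Tgfb3 (-1.08) and Zbtb16, a factor of innate-like lymphocytes (-1.71), were called lower.

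**Figure D4:**
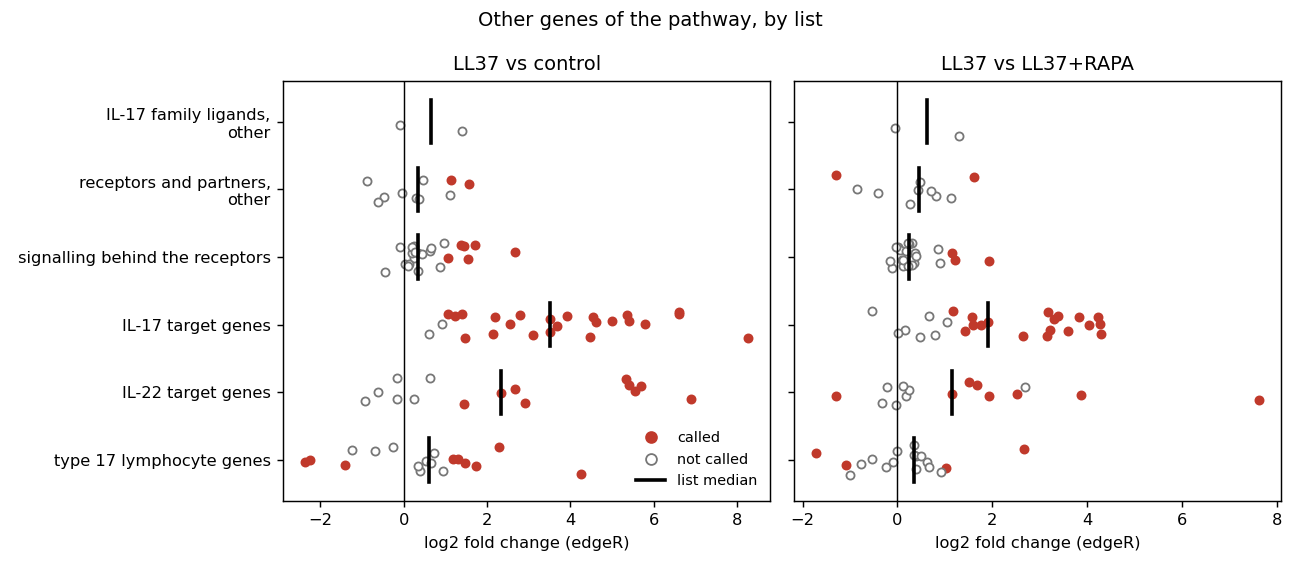
Log2 fold changes (x axis, edgeR) of the tested genes of the 6 pathway lists (y axis) with LL37 set against control (left) and against LL37 + RAPA (right), where red points were called, open points were not and black lines mark list medians. The targets of interleukin-17 have medians of 3.52 and 1.91, while the receptors and partners have medians of 0.33 and 0.46.

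In LL37 vs control, where 8.73% of all tested genes were called higher, the plot of the lists shows 23 of 25 interleukin-17 targets and 2 of 10 receptors and partners called higher. Markers of other cell types moved beside them. Neutrophil markers, 11 of 12 tested called higher in LL37 vs control, summed to 10.6 to 76.6 CPM in control, 17.3 to 38 with control + RAPA, 1890, 2580 and 265 in LL37, and 90.8, 371 and 377 with LL37 + RAPA. All 14 were read in at least 1 library of control, LL37 and LL37 + RAPA, and 1 was at 0 throughout control + RAPA. S100a8 and S100a9, which keratinocytes also express, are on this list and on that of the interleukin-17 targets. The libraries with the highest neutrophil sums, LL37 replicates 1 and 2, were also those with the highest CPM of Il17ra, Il23a and Il12b. Dendritic cell and macrophage markers, the cells that make interleukin-23, were called higher for 6 of 17 and summed to 681 to 997 CPM in control, 1410 to 1510 in LL37 and 1000 to 1370 with LL37 + RAPA. In LL37 replicates 1, 2 and 3 these sums were 1510, 1460 and 1410 CPM, and Il12b had 12, 13 and 0 counts. The part of neutrophils, dendritic cells and macrophages in the results was not tested.

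T cells are a source of Il17a, Il17f and Il22. The summed level of T cell markers was 42.9 to 52.7 CPM in control, 39.1 to 47.4 with control + RAPA, 44.1 to 55.3 in LL37 and 35.5 to 38.5 with LL37 + RAPA, so that the last group lay below the other groups. In LL37 vs control 1 of 12 tested was called higher, where 8.73% of all tested genes were. In LL37 vs LL37 + RAPA, where 10.1% of all tested genes were called, 2 of the 12 were called and 4 passed the p limit, all higher in LL37. Gamma-delta T cell markers summed to 8.95 to 13.3 CPM in control, 10.2 to 13.5 with control + RAPA, 13.2 to 16.9 in LL37 and 8.15 to 11.1 with LL37 + RAPA. For these, 0 of 6 tested were called by edgeR or DESeq2 in LL37 vs control, and 0 had an unadjusted p under 0.05. 1 of the 9 gamma-delta markers was at 0 in all control libraries and 2 in all LL37 + RAPA libraries. Skeletal muscle markers, which took 4.19 to 5.97% of counts in control, took 0.0158 to 0.116% in LL37 and 0.382 to 0.824% with LL37 + RAPA. Adipocyte markers summed to 1640 to 2780 CPM in control, 1950 to 4450 with control + RAPA, 522 to 986 in LL37 and 2960 to 3130 with LL37 + RAPA. Of these 10, 8 were called lower in LL37 vs control and 9 lower in LL37 vs LL37 + RAPA, where 19.5% and 10.1% of all tested genes were called. Their part in the results was not tested.

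**Figure D5:**
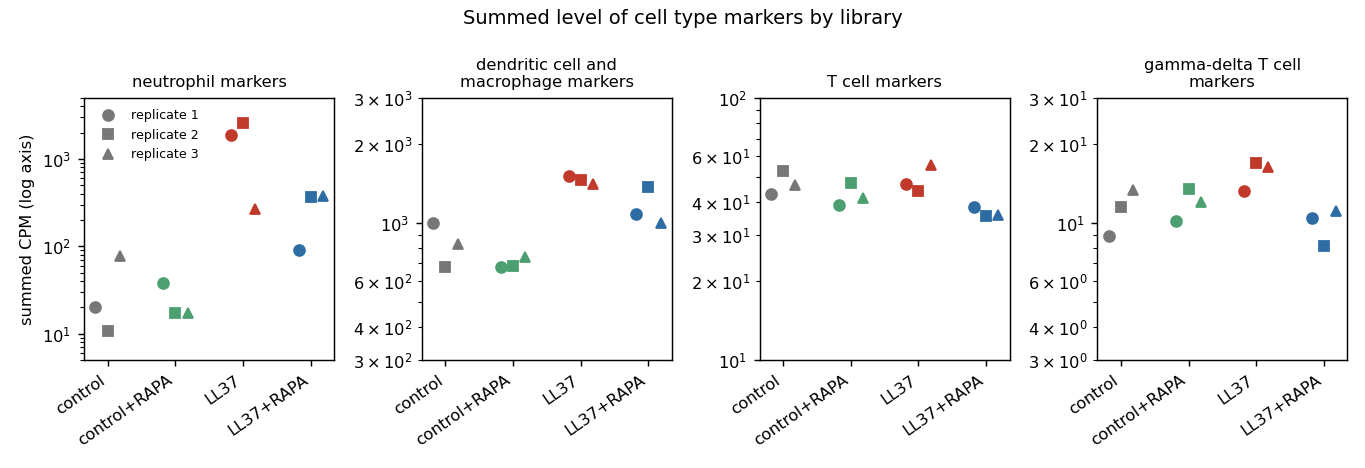
Summed CPM (y axis, log scale, a range of its own in each panel) of 4 cell type marker lists in each of the 12 libraries, by group (x axis), with 1 marker shape per replicate. Neutrophil markers range from 10.6 to 2580 CPM with LL37 replicate 3 at 265 CPM, while T cell markers stay between 35.5 and 55.3 CPM.

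The plot of marker sums shows T cell markers in all groups. Il17a and Il22, which are not in this plot, had 4 and 0 counts over the 12 libraries in total.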

How the data were processed

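RNA from whole BALB/c skin was made into libraries with a TruSeq RNA kit, which does not mark strand. The authors deposited raw read counts per gene for 12 libraries, without normalization or pooling. The submitters' processing notes name HISAT2 2.0.5, StringTie 1.3.3b, featureCounts 1.5.0-p3, DESeq2 1.16.1 and build mm10, while the study's methods name HTSeq for the counting. Gene positions and exon lengths came from the GENCODE annotation of GRCm38, and promoter sequences from RefSeq.

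All 12 libraries were fitted together in R 4.3.3 by edgeR 4.0.16, using its quasi-likelihood F-test after TMM scaling and the filterByExpr filter (minimum count of 10, groups as design). This left 17993 tested genes. Replicates 1 to 3 are the labels' numbers. Comparisons, per-length levels, marker sums, exact permutation tests of low members and the ratios of pooled reads were computed from the same counts. Scripts were tested on simulated data. Alternatives were DESeq2 1.42.0, other scalings and filters, no fold limit, the compared groups alone, a replicate block, and each library left out. Leaving out control replicate 3 and LL37 replicate 3 together was added after the counts were seen.

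The members and gene lists were chosen with earlier results of these data known. Of the other pathway genes, those named are the 4 with the smallest p among the called genes of each list when LL37 is set against control or LL37 + RAPA, all tested genes of the ligand and receptor lists, and 8 genes fixed by name, 1 of which is not reported here. The 3 genes most correlated with each called member are also named. No 2 libraries of a group agreed within sampling noise: the chi-square per gene between them was 13.2 or more.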

Additional observations from a re-analysis of the deposited data

Results flagged for a closer look

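No member of the axis met a criterion for a closer look. 5 other genes of the pathway did, because the effect of LL37 differed between rapamycin-treated and untreated skin by edgeR's interaction test. All 5 were negative, a direction in which edgeR called 0.65% of all tested genes. DESeq2 called 12 of the 90 tested pathway genes for the interaction. The lists were drawn up with earlier results of these data known, so these counts are descriptions. The interaction, as a log2 difference, was -1.71 for Defb14 (adjusted p = 0.0378), -3.89 for Ptgs2 (adjusted p = 0.0402), -1.47 for Il1f9 (adjusted p = 0.0223), -1.08 for Krt17, a keratin of activated epidermis (adjusted p = 0.0411), and -3.75 for Saa3 (adjusted p = 0.0454). Il1f9 lay at 132, 112 and 87.8 CPM in LL37 and at 34.7, 41 and 47.2 CPM with LL37 + RAPA. It lay at 44.4, 41.5 and 56.5 CPM in control and at 41.8, 49.6 and 54.9 CPM with control + RAPA. All LL37 libraries thus stood above all others, a description of the values by which the gene was flagged. Over all tested genes, LL37 libraries lay above all control libraries for 23.8% and above all LL37 + RAPA libraries for 17.6%. Il1f9 was called in 18 of 21 alternatives, and missed the limit without control replicate 1 (adjusted p = 0.0598), LL37 + RAPA replicate 1 (adjusted p = 0.0687) or control + RAPA replicate 3 (adjusted p = 0.062). Defb14 was called in 11 of 21, and Ptgs2, Krt17 and Saa3 in 9 each. All 5 interactions stayed below 0 in every alternative, from -4.68 for Ptgs2 to -0.91 for Krt17.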

How the results depend on the processing

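Of 384 recomputed values of single genes, 361 kept their direction and their side of the limit, and 172 of 204 recomputed counts stayed within 1.5 times the reported count. The number of members called in LL37 vs control, 2 in the fit of all libraries, was 1 with at least 10 counts in every library and 1 with the compared groups only, and 1 to 4 with 1 library left out, where the higher counts add members that passed the filter only through the LL37 libraries. It was 0 in LL37 vs LL37 + RAPA, with 0 to 1 over the left-out libraries, 1 in LL37 + RAPA vs control (0 to 1), and 0 in LL37 + RAPA vs control + RAPA, where library size scaling alone and no fold limit each gave 1 (0 to 1 over the left-out libraries). Without control replicate 3 and LL37 replicate 3, it was 2 in LL37 vs LL37 + RAPA, 2 in LL37 + RAPA vs control and 1 for the interaction, and Il23a in control + RAPA vs control was 2.2. That setting was chosen after the counts were seen, and the calls of Il23a and Il12b in it are not used. The pathway genes called in LL37 vs LL37 + RAPA, 32 in the fit of all libraries, were 17 with the compared groups only and 13 to 41 with 1 library left out, with 13 without LL37 replicate 1, 14 without LL37 + RAPA replicate 1 and 21 without LL37 + RAPA replicate 3. Those in LL37 + RAPA vs control, 16, were 23 without both these libraries and ranged from 8 to 21 with 1 library left out, with 10 without control replicate 1 or 2 and 8 without LL37 + RAPA replicate 2 or 3. Of the members below the filter, 0 separated LL37 from control, against 1 by library size scaling and 0 to 3 with 1 library left out, where 2 libraries face 3. The cause was not tested for any of these.

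The sign turned for values near 0. Il17rc was 0.01 in LL37 + RAPA vs control and 0.08 in LL37 + RAPA vs control + RAPA by library size scaling, which shifted the median of all genes by 0.13 and 0.18 and moved the share of higher calls from 33 to 44.6% and from 48.5 to 62.7%. In control + RAPA vs control, with 1 library left out, Il23a went down to -0.13, -0.17 and -0.32, and Il17rc up to 0.07 and 0.04. Their ranges over the left-out libraries were -0.32 to 2.18 and -0.08 to 0.07.

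Deviations of same-numbered libraries correlated between -0.19 and 0.26 over 18 pairs, and 5 of 12 libraries correlated best with their own number, so the numbers were not taken as pairing. With the replicate number as a block, 2 members and 45 pathway genes were called in LL37 vs control and 0 and 24 in LL37 vs LL37 + RAPA. The block changed no call of a member. Depth limits Il17a, Il17f, Il22, Il12b and Il23r, whose groups held few or no reads.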
